A study of Macaca mulatta with 24 samples.

Results

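The receptors FAS and EDA2R of the tumor necrosis factor (TNF) receptor family were examined in rhesus macaque ileum after total-body irradiation (TBI), together with the related receptors TNFRSF10B, TNFRSF1A, TNFRSF1B and TNFRSF21, the adaptor FADD and the initiator caspase CASP8. Every array probe that carries 1 of these 8 gene symbols in the deposited normalized table was taken, which gave 11 of the 43603 probes of the array and 6 of the 8 genes. FAS and TNFRSF1A each had 2 probes, TNFRSF1B had 2, CASP8 had 3, and EDA2R and TNFRSF21 had 1 each. No probe carries the symbol TNFRSF10B or FADD in that table. The genes were chosen because FAS and EDA2R were already known to be higher in irradiated than in unirradiated ileum of these animals, so their differences from the controls are given below as a description with their errors and without p-values.

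Ileum came from 24 young-adult male rhesus macaques, with 1 array for each animal and no pooling. In the control group, 4 animals were sham-irradiated and are labelled with a dose of 0 Gy and day 4, and these same 4 served as the baseline for every dose and day. The other 20 animals received a single uniform total-body dose of gamma rays from a cobalt-60 source and were killed 4, 7 or 12 days later, 10 at a dose of 6.7 Gy and 10 at 7.4 Gy, each dose being split into 4, 4 and 2 animals for these days. A piece of the whole ileal wall was used for RNA extraction, so the values average over epithelium, immune cells, muscle and connective tissue, and fewer cells of a type cannot be told apart from less RNA per cell.

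Receptors of this family sit in the cell membrane and are switched on by ligands that are themselves membrane-bound or secreted proteins. FAS, TNFRSF1A, TNFRSF10B and TNFRSF21 carry a death domain on the cytoplasmic side. Bound by its ligand FASLG, FAS gathers FADD, which recruits CASP8, and the caspases that this enzyme cleaves carry out apoptosis. EDA2R binds an isoform of ectodysplasin A, the product of the EDA gene, and lacks a death domain. TNFRSF1B is the other receptor for TNF, found mainly on immune and endothelial cells, and it too lacks a death domain. Both FAS and EDA2R are known target genes of the transcription factor p53, which is stabilized when DNA is broken by radiation.

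Levels are given as log2 signal relative to the 75th percentile of the array, so that a level of 0 equals that percentile, a difference of 1 is a 2-fold difference, and levels of different probes cannot be compared with each other. All 11 probes were well above background on all 24 arrays and none was saturated. Between 72.7% and 88.1% of the probes of an array were above background, and correlations between arrays over the tested probes ran from 0.954 to 0.990. The tissue label was matched by the bile acid genes of ileal enterocytes, FABP6 and SLC10A2, which were above background on 24 of 24 arrays, as were the epithelial markers tested. Control animal 1 stood apart from the other controls in its smooth muscle markers ACTA2, DES and ACTG2, whose mean level was 4.81 against 6.65 to 6.86 in the others. Values of EDA2R, FAS, TNFRSF21 and CASP8 without it are given beside their results.

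EDA2R was higher in every irradiated animal than in any control. It was more than 10-fold above unirradiated ileum on day 4 after both doses, and about 3-fold above it on day 12. In the controls the EDA2R level was −3.69, −2.63, −2.39 and −2.53. On day 4 it was 0.82, 1.14, 0.54 and −0.25 at the lower dose of 6.7 Gy and 1.22, 0.46, 0.89 and 0.77 at the higher dose of 7.4 Gy. Control animal 1 was the lowest of all animals, and the other 3 controls lay between −2.63 and −2.39.

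On day 7 the EDA2R level was 0.06, −0.92, −0.71 and −0.55 after 6.7-Gy TBI. After 7.4-Gy TBI it was −0.14, −0.37, −0.01 and 0.18. These 8 animals lay between the controls and the upper part of the day 4 range, and 4 of them were above the lowest day 4 animal, at −0.25. On day 12 the EDA2R level was −1.17 and −1.18 after 6.7-Gy TBI, and at 7.4 Gy it was −1.22 and −0.95. All 4 day 12 animals were below every day 4 and day 7 animal and above every control.

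**Figure D1:**
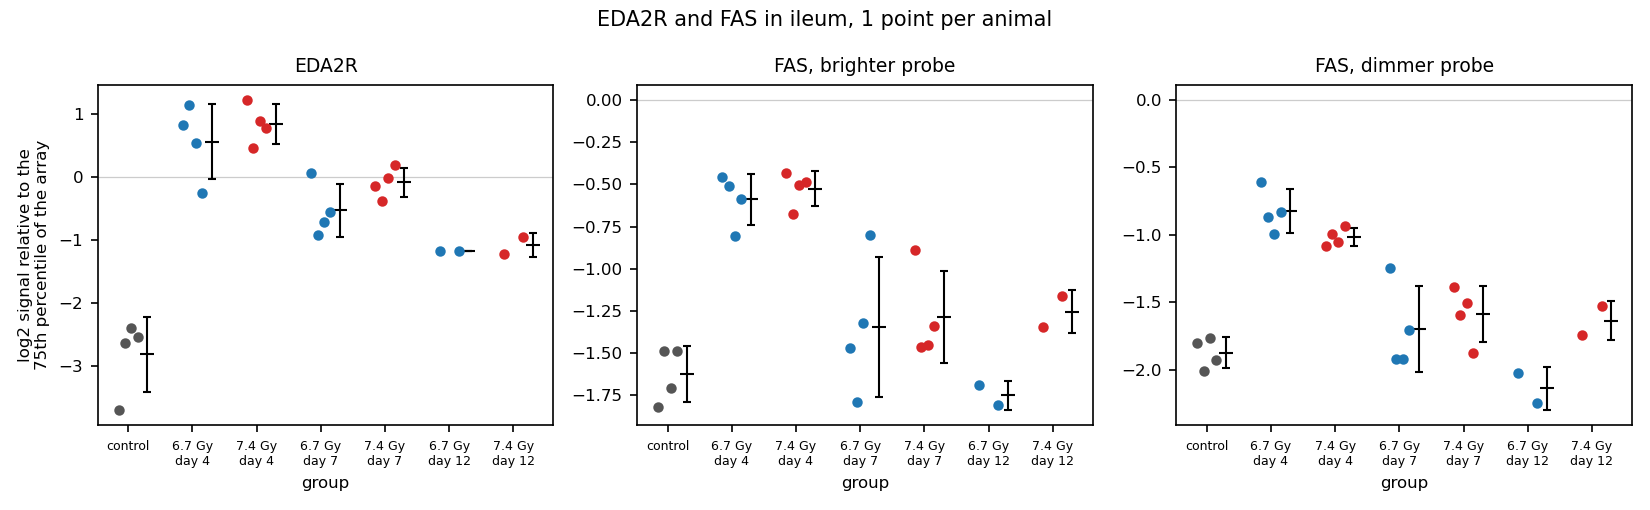
Level of EDA2R and of both FAS probes (log2 signal relative to the 75th percentile of the array, vertical axes of different range) in the 7 groups, with 1 point for each animal and the group mean ± SD beside the points. EDA2R stayed above the 4 controls in all 20 irradiated animals, whereas FAS was clear of the controls on both probes on day 4 and returned to near their range on days 7 and 12.

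The mean EDA2R difference from the controls was 3.37 (SE 0.29, n = 4 against 4) on day 4 at 6.7 Gy, a 10.4-fold higher signal with a 95% interval of 6.82- to 15.8-fold. After 7.4-Gy TBI it was 3.65 (SE 0.29), or 12.6-fold with an interval of 8.26 to 19.1. On day 7 EDA2R was 4.86-fold higher after 6.7-Gy TBI, a log2 difference of 2.28 (SE 0.29), and 6.62-fold higher after 7.4-Gy TBI, a difference of 2.73 (SE 0.29). On day 12, with 2 animals a dose, it was 3.11-fold higher after 6.7-Gy TBI (log2 difference 1.64, SE 0.35) and 3.32-fold higher after 7.4-Gy TBI (1.73, SE 0.35). The difference from the controls thus became smaller from day to day and was still larger than the spread of the animals on day 12. Without control animal 1 the EDA2R differences at 6.7 and 7.4 Gy were 3.08 and 3.36 on day 4, 1.99 and 2.43 on day 7, and 1.35 and 1.44 on day 12.

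Within a dose, the EDA2R level on day 7 was below that on day 4 by a log2 difference of −1.09 (SE 0.29) after 6.7-Gy TBI and of −0.92 (SE 0.29) after 7.4-Gy TBI. On day 12 it was below day 4 by −1.74 (SE 0.35) and −1.92 (SE 0.35). The day 4 arrays were known to be high, so these too are descriptions.

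FAS, the receptor for FASLG, was about 2-fold higher on day 4 than in unirradiated ileum after both doses. On its brighter probe the level in the controls was −1.82, −1.49, −1.71 and −1.49. On day 4 it was −0.46, −0.51, −0.80 and −0.58 after 6.7-Gy TBI, and after 7.4-Gy TBI it was −0.43, −0.68, −0.51 and −0.48. All 8 day 4 animals were above all controls.

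On day 7 the FAS level was −1.47, −1.79, −1.32 and −0.80 after 6.7-Gy TBI, which overlapped the controls. After 7.4-Gy TBI it was −0.89, −1.46, −1.45 and −1.34, where the lowest animal was only just above the highest control. On day 12 it was −1.69 and −1.81 after 6.7-Gy TBI, within the range of the controls, and −1.35 and −1.16 after 7.4-Gy TBI, above it. Among the groups ordered by mean level, both day 4 groups came first and overlapped each other, and neither overlapped the next group, which was day 12 at 7.4 Gy. All further neighbours in that order, from there down to the controls and day 12 at 6.7 Gy, overlapped. This order compares neighbours only. At 6.7 Gy day 4 did overlap day 7, since the lowest day 4 animal was at −0.804 and the highest day 7 animal at −0.800.

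The mean FAS difference from the controls on day 4 was 1.04 (SE 0.17) after 6.7-Gy TBI, a 2.05-fold higher signal with a 95% interval of 1.61- to 2.62-fold, and 1.101 (SE 0.17) after 7.4-Gy TBI, or 2.15-fold with an interval of 1.68 to 2.74. The dimmer FAS probe, which followed the brighter 1 over the 24 arrays with a Pearson correlation of 0.867, gave 1.05 (SE 0.14) and 0.86 (SE 0.14), and thus 1.81-fold at the higher dose. On day 7 the FAS difference from the controls was 0.28 and 0.34 (SE 0.17) on the brighter probe and 0.18 and 0.29 on the dimmer probe. On day 12 it was −0.12 and 0.37 (SE 0.21) on the brighter probe and −0.26 and 0.24 on the dimmer probe. The day 4 difference of FAS lies close to a 2-fold change, so whether it counts as 2-fold depended on single animals: without control animal 1 it was 0.97 at the lower and 1.04 at the higher dose, and without the first 6.7-Gy animal of day 4 it was 0.99 at that dose.

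From day 4 to day 7 the FAS level differed by −0.76 (SE 0.17) after both doses. From day 4 to day 12 it differed by −1.16 (SE 0.21) after 6.7-Gy TBI and by −0.73 (SE 0.21) after 7.4-Gy TBI. FAS was thus back near the level of the controls on day 7, when EDA2R was still about 5- to 7-fold above it, although the sizes of the changes of different probes are not on a common scale of RNA amount.

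The comparison of the doses was not used to choose these genes and was tested. EDA2R was higher after 7.4-Gy than after 6.7-Gy TBI by 0.28 on day 4, with a 95% interval of −0.33 to 0.88 (limma adjusted p = 0.89). On day 7 the EDA2R difference between the doses was 0.45, with an interval of −0.16 to 1.05 (limma adjusted p = 0.99), and on day 12 it was 0.09, with an interval of −0.76 to 0.95 (limma adjusted p = 0.98). For FAS the dose difference was 0.06 on day 4, with an interval of −0.29 to 0.42 (limma adjusted p = 0.95), and 0.06 on day 7, with an interval of −0.29 to 0.41 (limma adjusted p = 0.99). On day 12 the FAS dose difference was 0.50, with an interval of −0.0012 to 0.99 (limma adjusted p = 0.79), and on the dimmer probe it was also 0.50, with an interval of 0.08 to 0.92 (limma adjusted p = 0.77). No dose difference of either receptor passed the test, and the intervals leave room for differences of up to about 2-fold. Over all 14160 genes tested, the doses differed by limma in 0 on day 4 (0%), 0 on day 7 (0%) and 1 on day 12 (0.00706%), while an unadjusted p under 0.05 with a 2-fold change was met by 59, 59 and 195 genes.

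**Figure D2:**
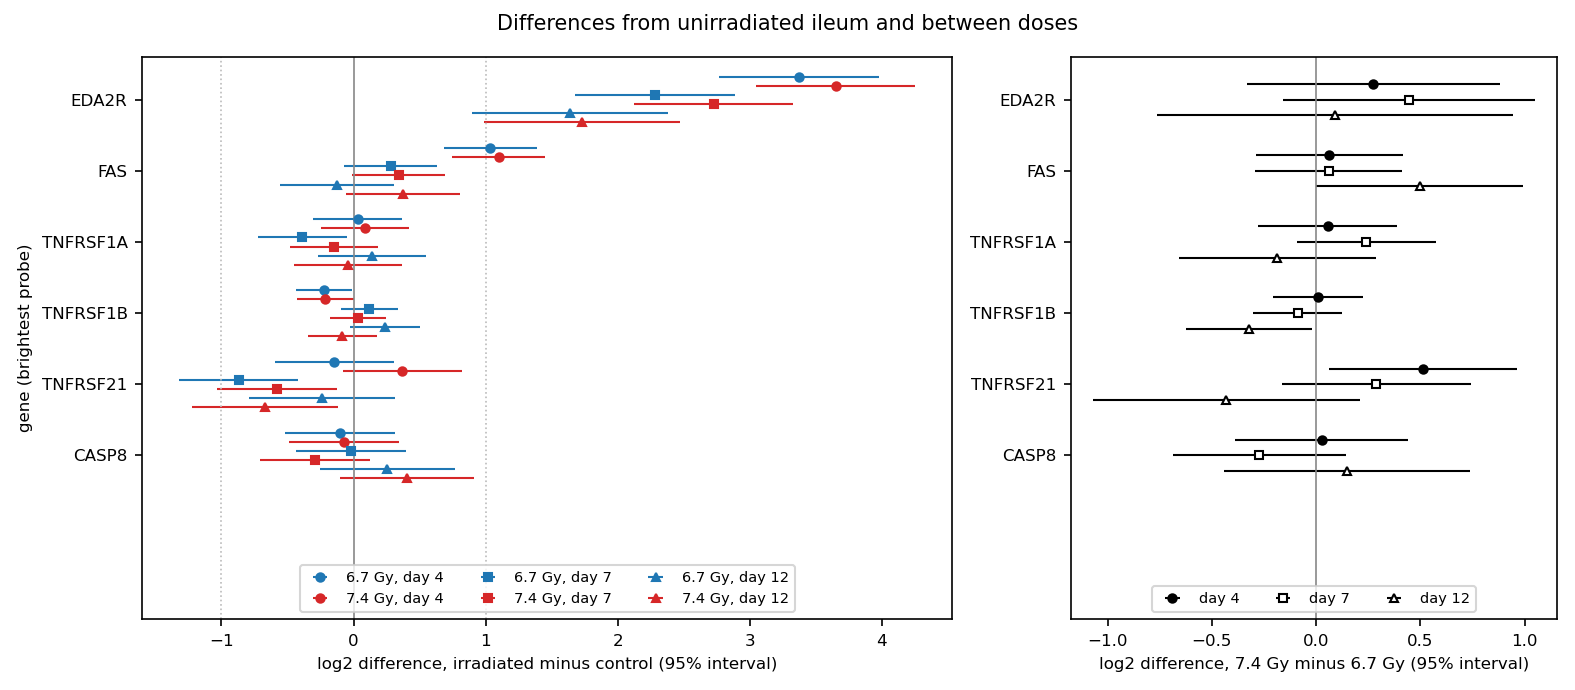
Left, log2 difference of each gene from the controls in the 6 irradiated groups (circles day 4, squares day 7, triangles day 12; blue 6.7 Gy, red 7.4 Gy); right, log2 difference between the doses on each day. Horizontal bars are 95% intervals of the limma fit, the dotted lines mark a 2-fold change, and EDA2R lies to the right of 0 in all 6 groups while the EDA2R and FAS dose intervals of these brightest probes span 0.

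The remaining receptors and CASP8 were not called in any comparison with the controls, where a probe is called if its Benjamini-Hochberg adjusted p from limma is under 0.05 and its change is at least 2-fold. By their brightest probes, 2 of the 6 genes were called on day 4 after each dose, FAS and EDA2R. EDA2R alone was called on day 7 after each dose, and 0 of 6 on day 12, when 1 gene, EDA2R, met a 2-fold change at limma's unadjusted p under 0.05 at each dose, as did 240 and 275 of all 14160 genes. Over all genes tested, 1.14% and 2.7% were called on day 4 at 6.7 and 7.4 Gy, 0.339% and 0.72% on day 7, and 0.155% and 0.0424% on day 12. FAS and EDA2R were chosen on these contrasts, so nothing is read from their count. EDA2R did not overlap the controls in 6 of 6 irradiated groups, and the share of all genes that did not overlap them was 11.6% and 17.1% on day 4, 8.63% and 8.32% on day 7, and 22.7% and 19% on day 12.

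TNFRSF1A, the death-domain receptor for TNF that most cells carry, was within 0.39 of the controls on the log2 scale in its group means on its brighter probe. Its level on the brighter probe ran from 3.22 to 3.96 in the controls and from 2.90 to 3.87 in the irradiated animals. Its largest difference was −0.39 on day 7 at 6.7 Gy (limma adjusted p = 0.43), and its groups overlapped the controls on every day. On the dimmer TNFRSF1A probe the differences from the controls lay between −0.28 and 0.42, and none passed the test (lowest limma adjusted p = 0.52).

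TNFRSF1B, the TNF receptor without a death domain, differed from the controls by −0.22 and −0.21 on day 4, by 0.12 and 0.03 on day 7 and by 0.24 and −0.08 on day 12, of which none passed the test (lowest limma adjusted p = 0.20). Within 6.7-Gy TBI its level was 7.94, 7.93, 8.25 and 8.02 on day 4 and 8.60 and 8.39 on day 12, groups that did not overlap, with a difference of 0.46 (limma adjusted p = 0.036), which is under 2-fold. Between these groups 35.2% of all genes did not overlap and 2.66% were called. After 7.4-Gy TBI the same difference was 0.13 and did not pass the test. The TNFRSF1B values come from a very bright probe, with a mean intensity of 324802 units, whereas the other probe of this gene has 696 units and did not follow it over the 24 arrays (Pearson correlation −0.13). On that dimmer probe the differences from the controls lay between −0.09 and 0.37, and none passed the test.

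TNFRSF21, also called death receptor 6, was the only other receptor of the set with a call, and it came between days rather than against the controls. Its level was −1.13, −1.70, −2.39 and −1.95 in the controls, a wide spread with an SD of 0.52. After 7.4-Gy TBI it was −1.56, −1.56, −1.27 and −1.32 on day 4, −2.52, −2.62, −2.56 and −1.81 on day 7, and −2.37 and −2.56 on day 12. Every day 7 and day 12 animal of this dose was below every day 4 animal, where 14.6% and 35.4% of all genes did not overlap day 4 in either direction.

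The TNFRSF21 difference between day 7 and day 4 at 7.4 Gy was −0.95 (SE 0.22, limma adjusted p = 0.021), just under a 2-fold change. Between day 12 and day 4 it was −1.04 (SE 0.27, limma adjusted p = 0.037), which was called. In that comparison 2.12% of all genes were called. Over the same 7.4-Gy groups the mean level of the 4 of 6 macrophage markers tested ran from 1.18 to 1.61 on day 4, from 0.53 to 0.99 on day 7 and from 0.60 to 0.92 on day 12. That of the 5 of 5 endothelial markers ran from −1.25 to −0.89, from −1.89 to −1.53 and from −2.19 to −1.90, and neither list overlapped its day 4 range on the later days. Other lists shifted too. Epithelial markers ran from 3.92 to 4.20, from 4.25 to 4.46 and from 4.35 to 4.41, higher on both later days without overlap. T cell markers ran from −0.30 to 0.16 on day 4 and from −0.85 to −0.42 on day 7. On day 12 fibroblast and smooth muscle markers lay below their day 4 range and ileal enterocyte markers above it. All 9 macrophage and endothelial markers were above background on 24 of 24 arrays. The part of any of these lists in the TNFRSF21 difference was not tested. The day 12 call rested on single animals, since it was lost without any 1 of 5 of the 6 animals compared, with adjusted p-values of 0.067 to 0.21 by limma and differences of −1.13 to −0.94. After 6.7-Gy TBI the TNFRSF21 level was −1.83, −2.07, −1.95 and −1.92 on day 4, −2.59, −2.76, −2.60 and −2.70 on day 7 and −1.67 and −2.40 on day 12. Day 7 was here below day 4 by −0.72 (limma adjusted p = 0.10) without overlap, and day 12 differed from day 4 by −0.09 (limma adjusted p = 0.85). Between days 7 and 4 of this dose 11.8% of all genes did not overlap.

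Against the controls, TNFRSF21 differed by −0.15 and 0.37 on day 4, by −0.87 (limma adjusted p = 0.093) and −0.58 (limma adjusted p = 0.24) on day 7 and by −0.24 and −0.67 on day 12, and 0 of these 6 differences passed the test. Control animal 3 was the lowest control, and without it the day 7 difference after 6.7-Gy TBI was −1.07 and was called (limma adjusted p = 0.026). Control animal 1 was the highest control, and without it the TNFRSF21 differences at 6.7 and 7.4 Gy were 0.075 and 0.59 on day 4, −0.65 and −0.36 on day 7, and −0.019 and −0.45 on day 12, of which none passed the test (lowest limma adjusted p = 0.12).

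CASP8, the caspase that FADD recruits to FAS, lay between −1.26 and −0.50 in the controls and between −1.55 and −0.48 in the irradiated animals on its brightest probe. Its differences from the controls ran from −0.29 on day 7 at 7.4 Gy to 0.40 on day 12 at 7.4 Gy (lowest limma adjusted p = 0.54). The largest in size of them was 0.56 without control animal 1. Both other CASP8 probes followed the brightest over the 24 arrays, with correlations of 0.83 and 0.80, and had no call either. The adaptor FADD can be found on the array through a locus symbol that the RefSeq gene table of assembly T2T-MMU8v2.0 names FADD, outside the choice by symbol. Its mean level was 2.48 ± 0.34 (SD, n = 4) in the controls, 1.90 ± 0.29 and 2.13 ± 0.42 on day 4 at 6.7 and 7.4 Gy, and its differences there were −0.59 (limma adjusted p = 0.30) and −0.35 (limma adjusted p = 0.57).

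**Figure D3:**
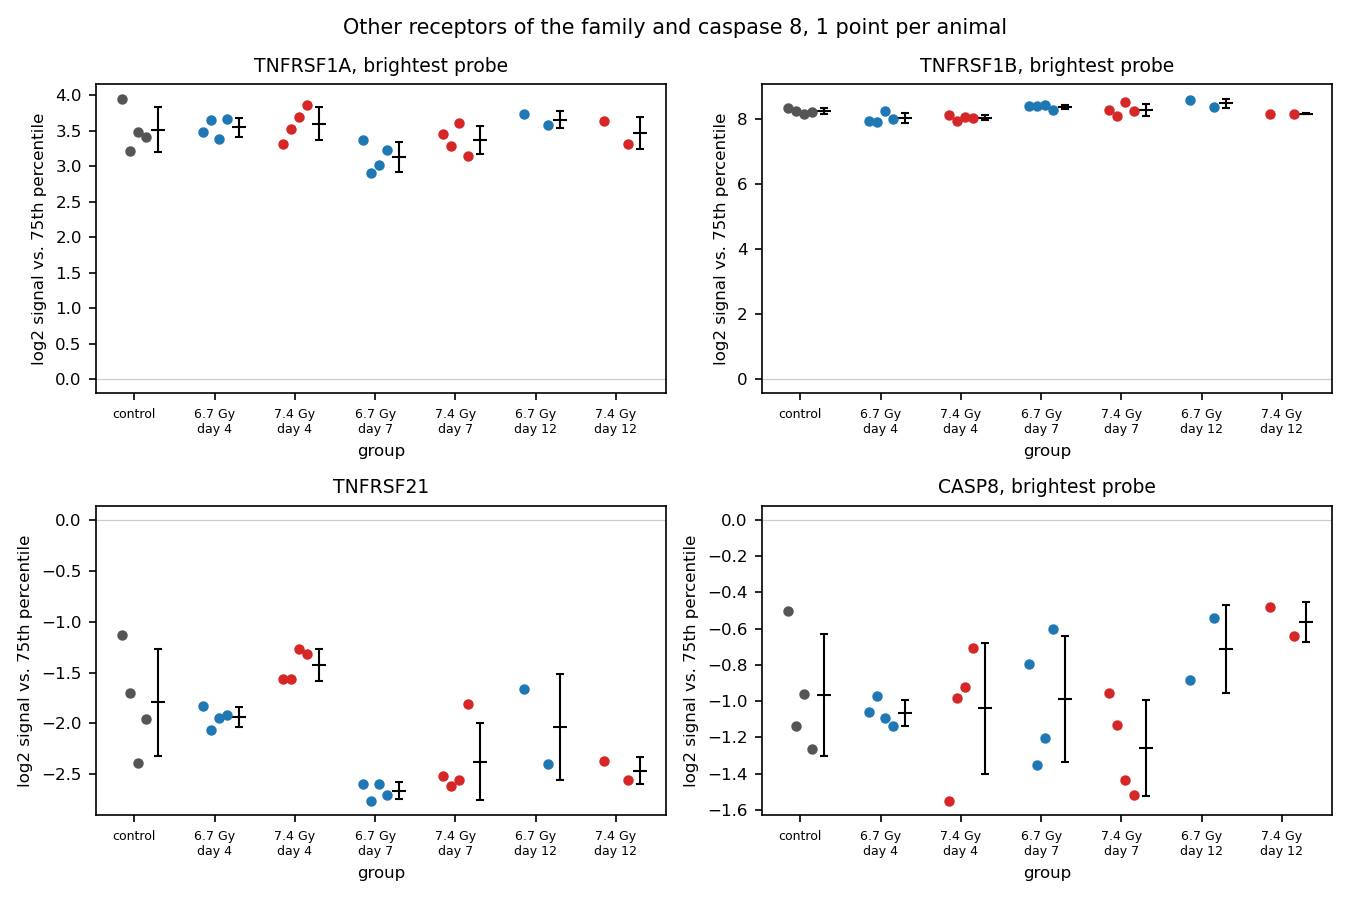
Level (log2 signal relative to the 75th percentile of the array) of TNFRSF1A, TNFRSF1B, TNFRSF21 and CASP8 by group, with 1 point for each animal and the group mean ± SD beside the points. TNFRSF21 on days 7 and 12 after 7.4-Gy TBI lies below day 4 of that dose, and the other 3 genes stay within about 0.4 log2 units of the controls in their group means.

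The ligands of these receptors were not called against the controls, 0 of 9 tested in any of the 6 comparisons, although TNFSF10 and TNFSF12 had an adjusted p under 0.05 with a change under 2-fold on day 4 at 7.4 Gy. FASLG, the ligand of FAS, had a mean level of −3.28 ± 0.61 (SD, n = 4) in the controls, −3.75 ± 0.70 and −3.67 ± 0.45 on day 4, and −4.15 ± 0.21 and −4.40 ± 0.49 on day 7 at 6.7 and 7.4 Gy. Its largest difference, −1.12 on day 7 at 7.4 Gy, did not pass the test (limma adjusted p = 0.14). EDA, whose product is the ligand of EDA2R, lay between −3.44 and −1.61 in the controls and between −2.84 and −1.55 on day 4, differences of 0.09 and 0.31 (limma adjusted p = 0.87 and 0.59). The files do not say which EDA isoforms this probe reads.

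TNFSF10, the ligand of the TNFRSF10 receptors, fell on day 4 at 7.4 Gy by 0.79 on the log2 scale (SE 0.20, limma adjusted p = 0.024), a 1.72-fold lower signal and so under the 2-fold limit. After 6.7-Gy TBI its difference was −0.62 (limma adjusted p = 0.087), and none of the day 4 animals, from 0.59 to 1.52, reached the lowest control at 1.54. On day 7 its mean levels of 1.86 and 1.90 were close to the 1.89 of the controls. TNF, the ligand of TNFRSF1A and TNFRSF1B, differed from the controls by −0.17 and −0.04 on day 4 (limma adjusted p = 0.79 and 0.96). TNFSF12, the ligand of the receptor TNFRSF12A, was higher on day 4 at 7.4 Gy by 0.70 (SE 0.18, limma adjusted p = 0.026), a 1.62-fold higher signal that did not overlap the controls, and was chosen for mention after its values were seen. The median log2 difference of the 9 ligands was −0.17 and −0.04 on day 4, against −0.07 and −0.05 over all genes tested.

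**Figure D4:**
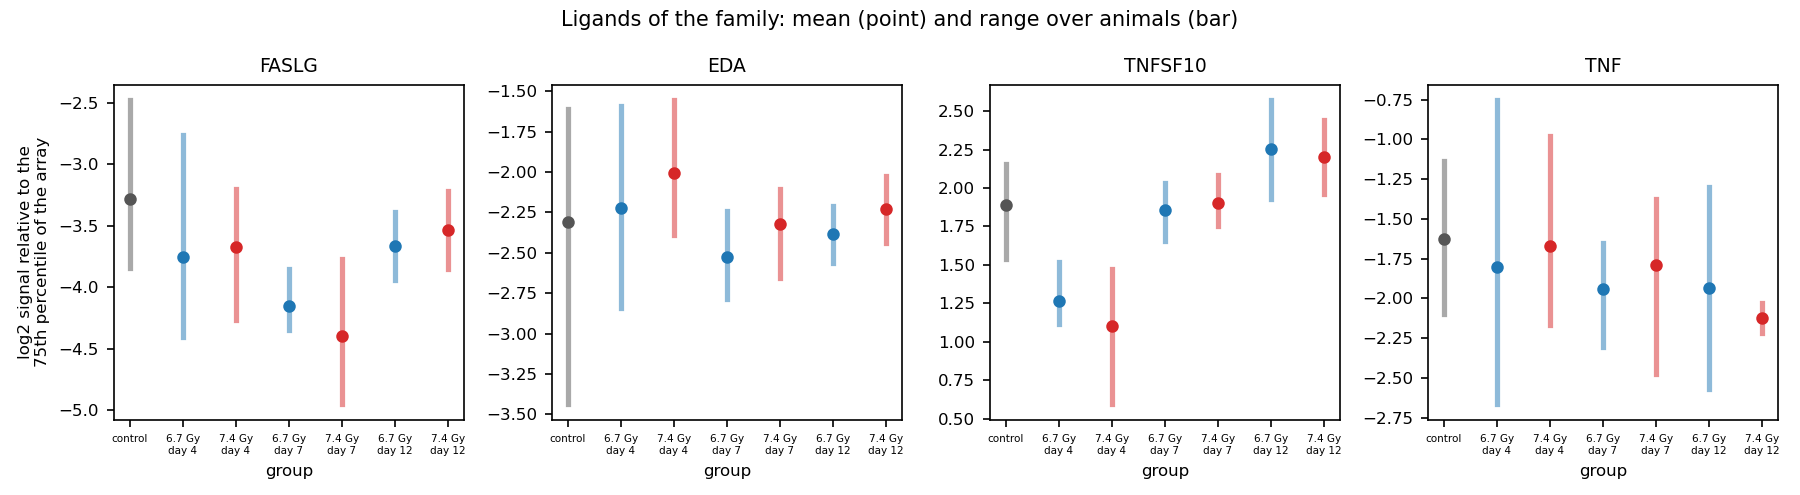
Level (log2 signal relative to the 75th percentile of the array) of the ligands FASLG, EDA, TNFSF10 and TNF by group, with the mean as a point and the range over animals as a bar. TNFSF10 is lowest in both day 4 groups, below the range of the controls, and the other 3 ligands overlap the controls on day 4.

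Of the other receptors of the family, 18 of 23 had a probe and 17 were tested. TNFRSF10D, a receptor for TNFSF10 with an incomplete death domain, rose on day 4 at 7.4 Gy by 1.05 (SE 0.30, limma adjusted p = 0.041) from a mean level of −5.23 in the controls, and its range of −5.10 to −3.65 overlapped theirs. TNFRSF17, a receptor of plasma cells, fell on day 7 at 7.4 Gy by 2.97 on the log2 scale (SE 0.58, limma adjusted p = 0.012), from −3.22 to −1.55 in the controls to −7.64 to −4.15, where 3 of 4 arrays were above background. The mean level of TNFRSF17 was −2.75 in the controls and lower in all 6 irradiated groups, though called only in that 1. At 6.7 and 7.4 Gy it was −4.28 and −4.53 on day 4, −4.50 and −5.71 on day 7, and −4.24 and −4.53 on day 12. The remaining 15 receptors were not called in any of the 6 comparisons. Over all genes, 1.88% were called higher on day 4 and 0.558% lower on day 7 at 7.4 Gy.

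Downstream of the receptors, 0 of 11 adaptors and kinases tested were called in any comparison with the controls. Of 7 inhibitors tested, FAIM3, a receptor for immunoglobulin M on B cells once described as an inhibitor of FAS, fell on day 4 at 6.7 Gy by 1.01 on the log2 scale (limma adjusted p = 0.044) and on day 7 at 7.4 Gy by 1.42 (limma adjusted p = 0.0076), where 0.445% and 0.558% of all genes were called lower. Its mean level was −2.36 in the controls and lower in every irradiated group. At 6.7 and 7.4 Gy it was −3.37 and −3.09 on day 4, −3.48 and −3.78 on day 7, and −3.30 and −3.60 on day 12. Markers of B cells were lower in the 2 groups with a FAIM3 call: the mean level of the 5 of 6 B cell markers tested ran from −3.12 to −1.07 in the controls, from −4.51 to −3.08 on day 4 at 6.7 Gy and from −4.65 to −3.37 on day 7 at 7.4 Gy, and the defining markers CD79A and CD79B were called lower in both. The part of B cell number in the FAIM3 and TNFRSF17 differences was not tested.

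Of 9 caspases and effectors tested, 0 were called higher in any of the 6 comparisons with the controls.

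Target genes of p53 other than FAS and EDA2R were higher on day 4 after both doses, 6 of 15 tested, and none was lower. The 6 were BAX, which permeabilizes mitochondria, PLK2, a kinase of the cell cycle, DDB2, a DNA repair protein, GDF15, a stress cytokine, ZMAT3, an RNA-binding protein, and PHLDA3, an inhibitor of AKT signaling. Over all genes, 0.699% and 1.88% were called higher in these comparisons. Their differences from the controls at 6.7 and 7.4 Gy were 1.05 and 1.06 for BAX, 2.01 and 1.99 for PLK2, and 3.83 and 4.23 for GDF15. This list was put together with earlier results of these data known, and its count is not independent evidence of its direction. MDM2, the ubiquitin ligase of p53, gave different answers on its probes, with 0.11 and 0.31 on the brightest and 1.85 and 2.08 on a dimmer probe, and was singled out after its values were seen.

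On day 7, 3 of the 15 p53 targets were called higher after each dose, DDB2, GDF15 and PHLDA3, where 0.0989% and 0.162% of all genes were. On day 12 GDF15 was called after 6.7-Gy TBI (2.30, SE 0.43, limma adjusted p = 0.035), where 0.0424% of all genes were called higher. At 7.4 Gy on that day GDF15 differed by 1.15 (limma adjusted p = 0.43) and was not called.

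Of the 5 genes whose levels followed EDA2R most closely over the 24 arrays, 1, ZMAT3, was also among the 5 that followed FAS most closely. For EDA2R the highest Pearson correlations among 14159 genes were those of PHLDA3 at 0.959, DDB2 at 0.939, ANKRD65 at 0.920, ZMAT3 at 0.910 and the locus LOC100429499 at 0.889. For FAS they were those of PLK2 at 0.872, ATG7 at 0.867, the locus LOC708234 at 0.866, ZMAT3 at 0.861 and ADGRL2 at 0.861. EDA2R and FAS correlated with each other at 0.771, which made EDA2R number 72 in the order for FAS, and FAS number 103 in the order for EDA2R. All of these correlations pool the 7 groups, whose day 4 and control arrays lie far apart, and each pair of values comes from the same array.

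On day 7 the genes most like EDA2R and those most like FAS differed from the controls as follows. PHLDA3 was higher than in the controls by 2.40 and 2.75 on day 4 and by 1.26 and 1.69 on day 7 at 6.7 and 7.4 Gy, DDB2 by 2.31 and 2.52 and then by 1.19 and 1.53, and ANKRD65 by 5.18 and 5.83 and then by 4.01 and 3.76, each called in all 4 comparisons. LOC100429499 was higher by 2.05 and 2.68 on day 4 and by 1.20 (limma adjusted p = 0.17, not called) and 1.71 on day 7. ZMAT3, near both receptors, went from 1.75 and 1.90 to 0.80 and 0.89 (limma adjusted p = 0.017 and 0.0045), which is under 2-fold. PLK2 went from 2.01 and 1.99 on day 4 to 0.45 and 0.55 on day 7, where it was not called (limma adjusted p = 0.59 and 0.32). ADGRL2, an adhesion receptor, went from 0.96 and 1.21 to 0.25 and 0.38, and ATG7, an autophagy protein, from 0.46 and 0.57 to 0.10 and 0.22, and LOC708234 went from 0.60 and 0.86 to 0.18 and 0.34. Since these genes were picked for their likeness over the same arrays, their time courses are a description.

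**Figure D5:**
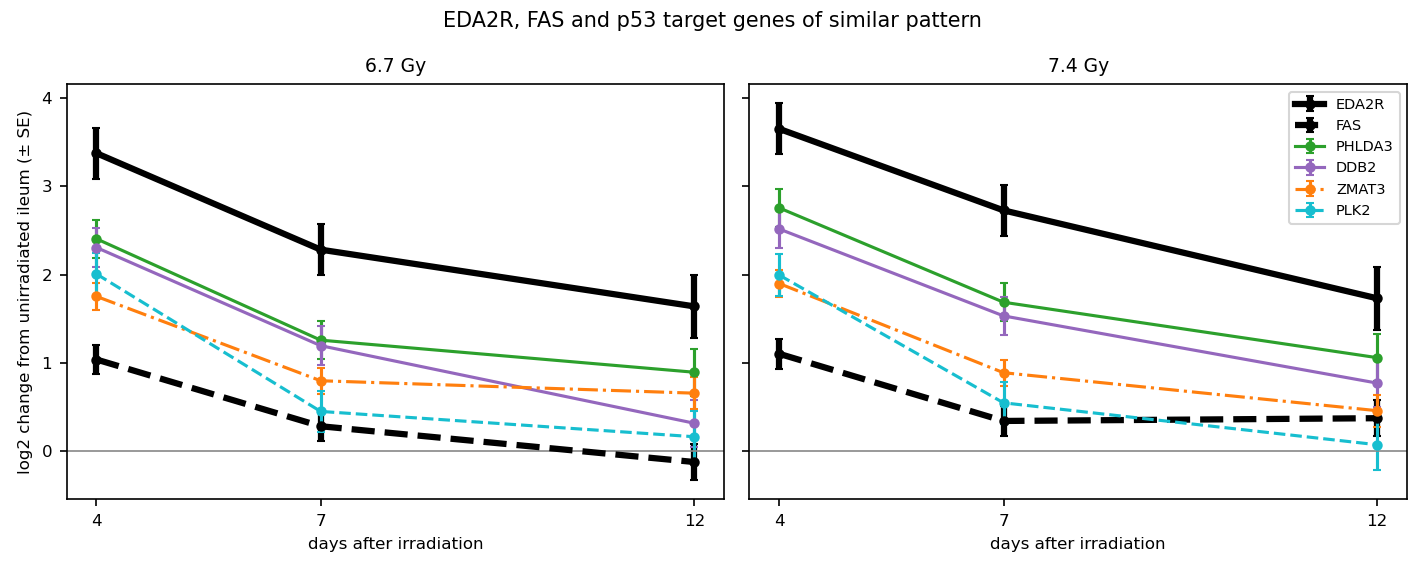
Log2 difference from the controls (± SE, limma fit) of EDA2R, FAS and 4 p53 target genes against days after 6.7-Gy TBI (left) and 7.4-Gy TBI (right). EDA2R, PHLDA3 and DDB2 are still above 1 on day 7 after both doses, whereas FAS and PLK2 are below 0.6.

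Marker genes of other cell types differed in level between the day 4 groups and the controls. The mean level of the 7 of 8 epithelial markers tested ran from 4.47 to 4.97 in the controls, from 3.73 to 4.41 on day 4 at 6.7 Gy and from 3.92 to 4.20 after 7.4-Gy TBI, without overlap. On day 7 it ran from 4.37 to 4.65 at 6.7 Gy, which overlapped the controls, and from 4.25 to 4.46 at 7.4 Gy, still below all controls. The 6 fibroblast markers ran from 0.65 to 1.16 in the controls and from 1.20 to 2.11 and 1.62 to 2.39 in the day 4 groups, without overlap. On day 7 they ran from 0.74 to 1.11 at 6.7 Gy and from 1.35 to 1.75 at 7.4 Gy, where they were still above all controls. The B cell markers ran from −4.22 to −3.50 on day 4 at 7.4 Gy, below the −3.12 to −1.07 of the controls. Markers of T cells (7 of 8 tested) ran from −0.15 to 0.54 in the controls and from −0.66 to 0.16 over both day 4 groups, and those of neutrophils (4 of 4) from −3.57 to −3.24 and from −3.74 to −0.25. Among the defining markers, MS4A1 of B cells was above background on only 9 of 24 arrays and CD5 of T cells on 11. The part of these shifts in the FAS, EDA2R and TNFSF10 differences was not tested.

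The arrays lay on 6 slides of 4 positions. EDA2R and FAS were higher on day 4 on every slide that held both groups: by 4.23 and 2.38 for EDA2R and by 1.02 and 0.91 for FAS after 6.7-Gy TBI, and by 3.61 and 3.00 for EDA2R and by 1.27 and 0.81 for FAS after 7.4-Gy TBI. On day 7 the within-slide difference of EDA2R was 1.68 to 3.75 on the 6 slide comparisons available, and that of FAS was −0.30 to 0.69. All controls lay at position 1 of their slides, so position and group cannot be told apart for days 7 and 12. The same holds for day 4 at 7.4 Gy taken with the controls alone, since all of its arrays lay at position 2. Only the day 4 arrays at 6.7 Gy lay at both positions, so a position term rests on them. With position as a covariate among the day 4 groups and controls, EDA2R was still called after both doses, with differences of 3.79 and 4.49. FAS was called after 6.7-Gy TBI with 1.14, but not after 7.4-Gy TBI, where it was 1.31. Over all 36108 probes, 48 and 20 were called at 6.7 and 7.4 Gy with the position term, and 103 and 297 from the same arrays without it.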

How the data were processed

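Total RNA of ileum was labelled and hybridized by the authors to single-color Agilent Rhesus Macaque arrays, 1 for each of 24 animals, without pooling. The deposited scanner intensities were read with Agilent Feature Extraction 11.0.1.1 per the file headers, with background subtracted and no scaling between arrays. In the deposited normalized table the authors give log2 values after scaling to the 75th percentile and centring of each probe. Both tables give a gene symbol for part of the probes.

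Values were computed again as log2 of the scanner intensity minus the 75th percentile of the array (837.3 to 1330 intensity units). Spots with an outlier flag were dropped if their probe had a further spot. Of 43603 probes, 36108 passed a filter on dim signal (in 1 or more of the 7 groups, all arrays well above background) and were tested with limma 3.58.1 in R 4.3.3, with 1 mean for each group and no covariate. P-values were adjusted (Benjamini-Hochberg) over all tested probes within a comparison, and a probe was called at an adjusted p under 0.05 with a change of at least 2-fold. The fit was tested on simulated data. A gene is given by its brightest probe. Named are the 8 genes of the set, genes of the 6 pathway lists called against the controls (1 result of the caspase and effector list is not reported here), the ligands FASLG, EDA, TNFSF10 and TNF, and the 5 genes most correlated with FAS and with EDA2R. The members, lists and tests were chosen with earlier results of these data known. For the last day, the treatment text of the labels differs from the titles and day fields, which give 12 and were followed. Replicate numbers name different animals in each group: deviations of same-numbered animals had a median correlation of 0.03 over 62 pairs, so they were not treated as pairs. Precision is limited by the number of arrays. Alternatives were another background correction, quantile scaling, the deposited table, other filters, the t-test of the methods, limma with a trend, other sets of arrays, slide, position and replicate number as terms, the mean of a gene's probes, and leaving out each animal.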

Additional observations from a re-analysis of the deposited data

Results flagged for a closer look

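In TNFRSF21, the level of 1 animal of day 7 at 7.4 Gy, −1.81, stood apart from the other 3 of its group, which lay between −2.62 and −2.52. It was the only such value among 55 groups of 4 animals checked over the 11 probes, where chance marks about 1 in 20. Without this animal the TNFRSF21 difference between day 7 and day 4 was −1.14 and was called (limma adjusted p = 0.0092).

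TNFRSF1A, TNFRSF1B, TNFRSF21 and CASP8, which were not chosen for it, each had 4 comparisons of a day with day 4 of the same dose. In 3 cases the difference had a limma adjusted p under 0.05, whatever its size. The share of all genes at that limit was not counted, so nothing is read from the number of cases. TNFRSF21 differed after 7.4-Gy TBI by −0.95 on day 7 and by −1.04 on day 12. TNFRSF1B differed after 6.7-Gy TBI by 0.46 on day 12, on its brighter probe only. Whether the same day difference was unequal at the 2 doses was not tested.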

How the results depend on the processing

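EDA2R kept its direction and its call on days 4 and 7 under all alternatives except the t-test of the methods with Benjamini-Hochberg adjustment. EDA2R was chosen for being higher than these controls, so its calls under the alternatives are a description. That t-test called 0 members on day 4 and day 7 at 6.7 Gy and day 7 at 7.4 Gy. There it called 0, 2 and 0 of all 36108 probes. Between day 12 and day 4 of each dose it called 0 members, and 1 and 0 of all probes at 6.7 and 7.4 Gy. By that test EDA2R (3.37) and FAS (1.04) of day 4 at 6.7 Gy were not called. Without adjustment the same test called 1 member on day 12 of each dose and 1 between day 7 and day 4 of 6.7 Gy. It then called 367 and 383 of all 36108 probes on day 12 at 6.7 and 7.4 Gy, and 447 between day 7 and day 4 of 6.7 Gy. The FAS day 4 call lies at the 2-fold limit. It was lost with normexp background correction (0.96 and 0.94, 1 member called at each dose), where 216 and 485 of all probes were called. After 7.4-Gy TBI it was also lost with slide as a block (0.97), position as a covariate (1.31) and the mean of both probes (0.98). Each of these left 1 member called, with 647, 20 and 841 of all probes called. The same arrays without the position term, an alternative chosen after seeing the data, kept 2 members. There 103 and 297 of all probes were called at 6.7 and 7.4 Gy. Between day 12 and day 4, 1 member was called with slide as a block at each dose, where 153 and 338 of all probes were called. From the 2 groups alone, 0 (6.7 Gy) and 1 (7.4 Gy) members were called, beside 1 and 236 probes. At 7.4 Gy, 1 member was called with normexp (410 probes) or without the filter (483 of 43603 probes). Between day 7 and day 4 of 7.4 Gy the slide block called 1 member and 197 probes. The FAS dose difference of day 4 turned to −0.022 with normexp, −0.073 with the slide block and −0.064 with the mean of probes, and TNFRSF21 of day 12 against day 4 at 6.7 Gy to 0.21 with the slide block. The cause was not tested.

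Leaving out 1 animal at a time, the members called on day 4 at 6.7 Gy were 1 to 2, with FAS at 0.97 to 1.11, and on day 7 at 6.7 Gy 1 to 2. Between day 7 and day 4 they were 0 to 1 at each dose, and between day 12 and day 4 they were 0 to 2 at each dose. Over all 36108 probes, the fits without 1 animal called 222 to 435 on day 4 and 37 to 92 on day 7 at 6.7 Gy. Between day 7 and day 4 such fits called 32 to 187 probes at 6.7 Gy and 176 to 376 at 7.4 Gy. Differences that were never called and turned sign were those of FAS between doses on day 4 (−0.0072 to 0.11) and day 7 (−0.088 to 0.24), EDA2R between doses on day 12 (−0.045 to 0.23), and TNFRSF21 on day 4 (−0.34 to 0.075), on day 12 (−0.61 to 0.13) and between day 12 and day 4 (−0.46 to 0.27), all after 6.7-Gy TBI. With the replicate block, 2 members were called on day 4 at each dose and FAS was 1.04 after 6.7-Gy TBI. The block changed no call of a member. Over all probes it called 357 in place of 353 on day 4 at 6.7 Gy and 845 in place of 842 at 7.4 Gy. On day 12 at 6.7 Gy it called 18 in place of 39.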
